A study of Mus musculus with 15 samples.

Results

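Nr2f1 and Nr2f2 encode a pair of closely related orphan nuclear receptors, COUP-TFI and COUP-TFII, and the occupancy of Polycomb repressive complex 1 (PRC1) was described at these 2 genes in mouse cells. The members were the peaks of 5 ChIP-seq peak lists that overlapped a window around each gene on the mm9 build, chromosome 13 from 78.29 to 78.37 Mb (80 kb) for Nr2f1 and chromosome 7 from 77.47 to 77.54 Mb (70 kb) for Nr2f2. These windows held 64 of the 30692 peaks in the 5 lists, 36 at Nr2f1 and 28 at Nr2f2. The windows and the comparisons made in them were chosen by the density and width of the peaks there, as known from earlier results of these lists. The lengths, widths and ratios below are therefore a description of the loci and carry no test.

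The lists came from E14Tg2A, an established mouse embryonic stem cell line with no genetic change named in the labels. One list mapped Mel18 in embryonic stem cells (ESCs) kept in 2i medium with LIF. The other 4 came from early precursors of cardiac mesoderm (MES), made from ESCs with BMP4, typically at 0.1 to 0.3 ng/ml, and mapped Mel18, Ring1b, Cbx2 and RYBP with 5 ug of antibody. Mel18 was mapped with the same antibody lot in both states, and each other subunit with its own antibody. Each list belonged to 1 sample and no read depth was given, so no difference between lists had a replicate check. Peak lists hold no expression values, so the cell types named in the labels could not be checked against marker genes.

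PRC1 is a repressive chromatin complex that marks histone H2A with ubiquitin and compacts chromatin at developmental genes. Ring1b is its catalytic subunit and Mel18 (Pcgf2) is a partner subunit of Ring1b. Cbx2 belongs to canonical PRC1, which binds the histone mark left by Polycomb repressive complex 2, and RYBP takes the place of the Cbx subunit in variant PRC1. Nr2f1 is known for its part in patterning the cortex and the eye. Nr2f2 is known for its part in venous and atrial identity, and both genes are activated by retinoic acid in many cell types.

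PRC1 is known to favour DNA rich in the dinucleotide CG, so the 250 bases before the outermost start site of each gene are shown from RefSeq, build GRCm38.p6. That build differs from the mm9 build of the peak lists, so no peak was placed on these bases. The Nr2f1 bases lie at chr13:78198874-78199123 and the Nr2f2 bases at chr7:70366747-70366996, both on the minus strand and printed 5′ to 3′, with each CG in capitals.
Nr2f1: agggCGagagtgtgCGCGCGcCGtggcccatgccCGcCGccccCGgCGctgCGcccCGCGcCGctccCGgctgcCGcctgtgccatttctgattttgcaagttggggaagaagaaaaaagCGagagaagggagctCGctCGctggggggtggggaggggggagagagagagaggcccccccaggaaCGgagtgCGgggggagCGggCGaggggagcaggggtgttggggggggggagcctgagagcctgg
Nr2f2: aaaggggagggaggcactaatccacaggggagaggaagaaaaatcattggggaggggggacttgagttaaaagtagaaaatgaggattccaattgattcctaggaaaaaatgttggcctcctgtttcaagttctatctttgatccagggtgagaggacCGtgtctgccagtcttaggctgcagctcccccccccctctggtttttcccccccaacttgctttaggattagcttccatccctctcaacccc
The Nr2f1 sequence held 22 CG and was 72% G or C, and 14.8% of the 32851 RefSeq promoters of the same length held as many CG or more. The Nr2f2 sequence held 1 CG and was 50% G or C, against a median of 6 CG and 52.4% G or C over all promoters. These bases precede the outermost start site only, so they do not give the CG content of the rest of either gene. Whether Nr2f2 has a CG-rich start site further inside was not examined. RefSeq listed another start site for Nr2f1 inside the gene, with 2 CG in the 250 bases before it. The nuclear receptor half-site AGGTCA was in none of these windows on either strand, against 14.0% of all promoters. TATAAA was also absent (12.4% of all promoters), and CCAAT, searched on both strands, occurred 2 times in the Nr2f2 window and in 33.8% of all promoters. On the GRCm38.p6 annotation a long noncoding RNA gene overlaps each receptor gene, A830082K12Rik at Nr2f1 and B130024G19Rik at Nr2f2.

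At Nr2f1 the peaks of all lists joined into 1 stretch of 51.0 kb, chr13:78301173-78352135, when peaks within 10 kb of each other were connected. At Nr2f2 they joined into 1 stretch of 50.6 kb, chr7:77467489-77518117, which began before the window. Both were among the longest in the series: by length covered by any list, Nr2f2 ranked 7 and Nr2f1 8 of 321 joined regions with at least 10 kb covered. The Nr2f1 stretch lay far from other peaks. Its nearest neighbouring peak in ESC Mel18 or MES Ring1b lay 724 kb before it, and the nearest MES Mel18 peaks lay 1780 kb before and 5500 kb after it. Near Nr2f2, just outside the window, a further stretch of 13.9 kb (chr7:77422220-77436129) held peaks of all 5 lists. The distance from that stretch to the Nr2f2 peaks was between 31.4 kb in Cbx2 and 36.6 kb in RYBP.

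**Figure D1:**
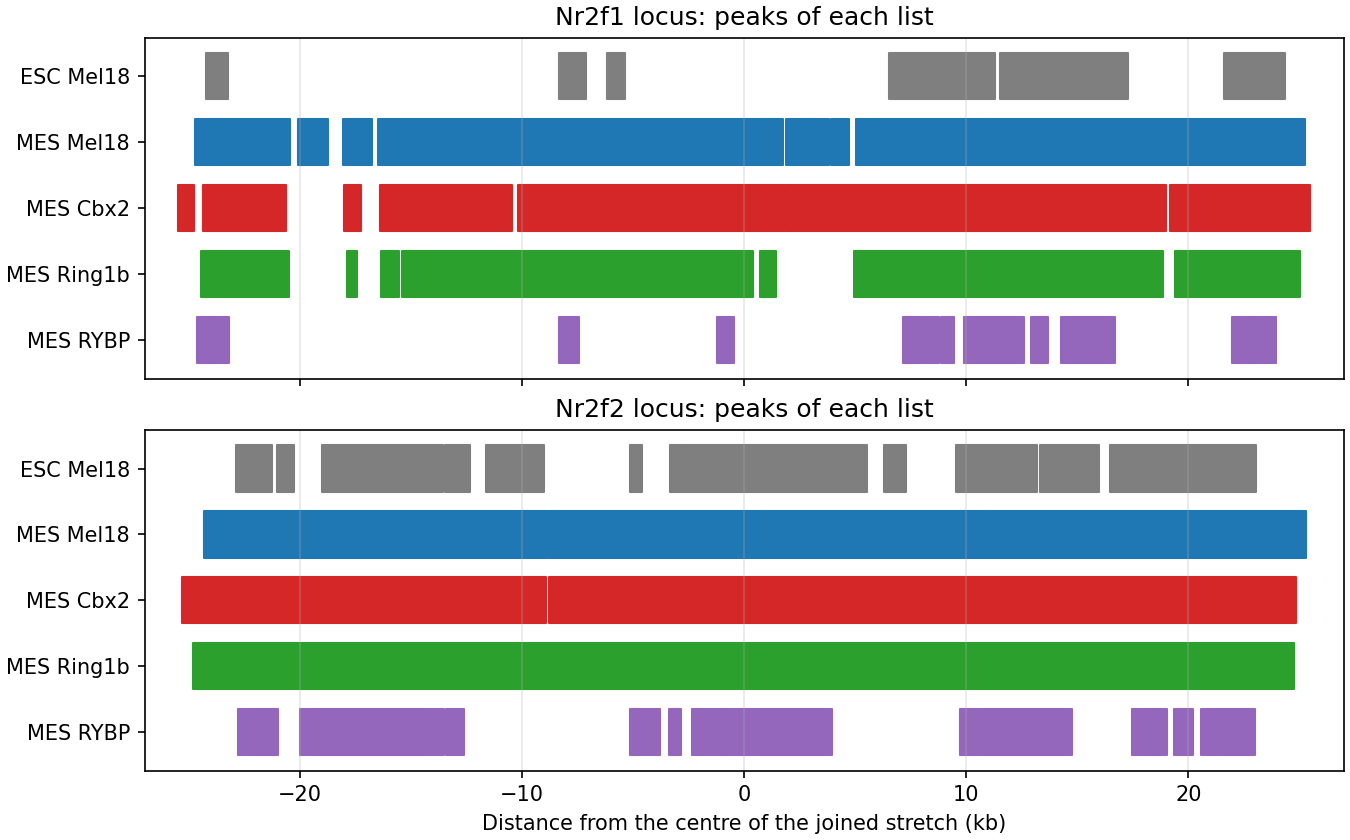
Peaks of the 5 lists at Nr2f1 (top) and Nr2f2 (bottom), 1 row per list, as bars along the distance in kb from the centre of the joined stretch. ESC Mel18 and MES RYBP form separate islands at both loci, whereas MES Mel18, Cbx2 and Ring1b fill most of each stretch. The shortest gaps are hard to see at this scale.

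Mel18 in ESCs formed separate islands at Nr2f1 and MES Mel18 filled the intervals between them. ESC Mel18 covered 16.2 kb of the Nr2f1 window with 6 peaks, and MES Mel18 covered 48.2 kb with 7 peaks, 2.97 times the length. All 6 ESC peaks lay on MES Mel18 peaks, and 0 kb of ESC Mel18 cover was outside MES Mel18 cover. The share of all ESC Mel18 peaks on MES Mel18 peaks was not computed. This count and the one at Nr2f2 below are therefore a description only. The outer limits of the occupied stretch were nearly the same in both states, since ESC peaks reached from 78302421 to 78351001 and MES peaks from 78301921 to 78351922. Of the 32.0 kb covered in MES only, 30.5 kb (95.6%) lay between the outermost ESC peaks. The longest interval free of ESC Mel18 was 14.9 kb (chr13:78303395-78318328), and the longest interval free of MES Mel18 was 0.666 kb between its outermost peaks.

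The 6 ESC Mel18 peaks at Nr2f1 fell into a strong and a weak set by the authors' score, which can be ranked only within a list. Adjoining peaks at chr13:78333176-78337935 and chr13:78338192-78343945 had the score of 3100 that 289 ESC Mel18 peaks share, and were 4760 and 5754 bp wide. The peak at chr13:78348255-78351001 scored 2155.56 and was 2747 bp wide. The other 3, at chr13:78302421-78303394, chr13:78318329-78319542 and chr13:78320496-78321288, scored 163.4, 236.48 and 95.01 and were 974, 1214 and 793 bp wide. The weak ESC peaks thus stood at the low-coordinate side of the locus, and the strong ones at the other.

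In MES, 2 very wide Mel18 peaks made up most of the Nr2f1 cover. The peak at chr13:78331673-78351922 was 20250 bp wide and held 3 ESC peaks, and that at chr13:78310165-78328386 was 18222 bp wide and held 2. The peak at chr13:78301921-78306194 held the remaining ESC peak. The other 4 MES Mel18 peaks, between 815 and 1960 bp wide, overlapped no ESC Mel18 peak. Of these, chr13:78306555-78307904 overlapped no peak of any other list, while chr13:78328532-78330491 and chr13:78330550-78331364 overlapped Cbx2 alone. The shares of all MES Mel18 peaks with such overlaps were not computed, so these counts are a description only.

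At Nr2f2 the Mel18 cover was already long in ESCs, and MES peaks closed its gaps. ESC Mel18 covered 34.8 kb of the window with 12 peaks, and MES Mel18 covered 48.1 kb with 2 peaks, 1.38 times the length. MES Mel18 peaks were fewer and wider over the whole lists too. There were 4165 with a median width of 1855 bp, against 6593 with a median of 1103 bp in ESCs. The 12 ESC peaks all lay on the 2 MES peaks, 5 on the first (chr7:77468463-77483991) and 7 on the second (chr7:77484016-77518117). The second was 34102 bp wide, wider than 99.9% of the MES Mel18 list, and 24 bases separated it from the first. The widest ESC peak was 8149 bp (chr7:77490171-77498319), and the longest interval free of ESC Mel18 was 3.88 kb. Of the 13.3 kb covered in MES only, 11.1 kb (83.0%) lay between the outermost ESC peaks. The window began inside the first ESC peak and so left out the MES Mel18 cover before that peak. Over the whole stretch the share was 74.8%.

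The MES Mel18 cover was nearly equal at both genes, 48.2 and 48.1 kb, so the ratio of MES to ESC differed through the ESC list. ESC Mel18 covered 34.8 kb at Nr2f2 against 16.2 kb at Nr2f1. Scores in ESCs ranged from 55.93 to 3100 at Nr2f2 and from 95.01 to 3100 at Nr2f1, with 2 peaks at 3100 at each. With 1 sample per list, whether the loci differ beyond the spread between cultures was not tested.

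**Figure D2:**
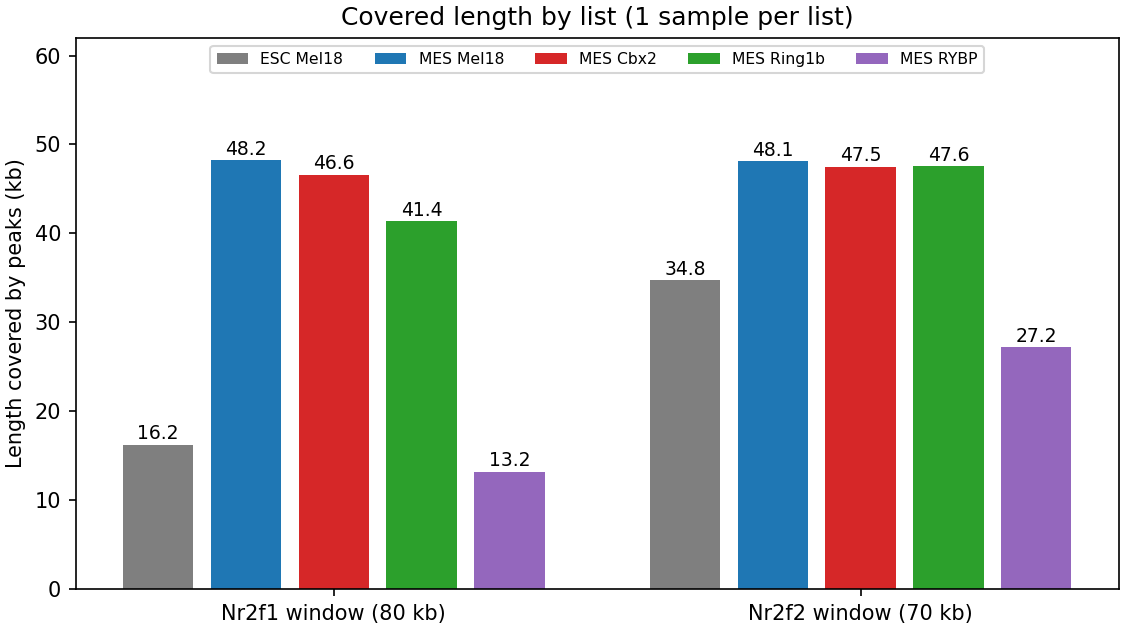
Length in kb covered by the peaks of each list in the Nr2f1 and Nr2f2 windows, 1 bar per list and 1 sample per bar. MES Mel18 reaches 48.2 and 48.1 kb, while ESC Mel18 stands at 16.2 kb at Nr2f1 and 34.8 kb at Nr2f2, and RYBP is the lowest bar at both loci.

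A longer cover in MES was common among large Polycomb regions. MES Mel18 covered at least 2 times the ESC Mel18 length in 17.4% of the 310 joined regions with at least 10 kb covered and with both lists. Nr2f1 was 1 of these regions and Nr2f2 was not. The median ratio over the 310 regions was 1.41 (quartiles 1.21 and 1.79), and the ratio was above 1 in 92.6% of them. Taken over its whole stretch, Nr2f1 had a ratio of 2.97 and ranked 20, and Nr2f2 had a ratio of 1.42 and ranked 152. Nr2f1 was chosen with this contrast in view, so its rank supports nothing further. Over the whole lists, MES Mel18 covered 1.11 times the length of ESC Mel18. Among the 92 regions with at least 20 kb covered, 5 had a ratio at least as high as that of Nr2f1, itself included. Among the 16 with at least 40 kb covered, Nr2f1 had the highest ratio. Both limits were set after the values were seen, so these positions support nothing further either.

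Most of the bases covered in MES only lay between ESC peaks, and not beyond them, at both genes. Over 307 regions, a median of 54.9% (quartiles 10.9 and 76.6%) of the bases covered in MES only lay between the outermost ESC Mel18 peaks of the region, against 95.6% at Nr2f1 and 74.8% over the whole Nr2f2 stretch. A region with 1 ESC peak has 0 bases between peaks by construction, and so the long loci with several ESC peaks have more room for such bases.

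Canonical Cbx2 covered more of both loci than RYBP in MES, as in 97.8% of the 313 large regions with both lists. At Nr2f1, Cbx2 covered 46.6 kb with 7 peaks and RYBP 13.2 kb with 9 peaks, a ratio of 3.53. At Nr2f2, Cbx2 covered 47.5 kb with 2 peaks and RYBP 27.2 kb with 10 peaks, a ratio of 1.75. All 19 RYBP peaks at the 2 loci overlapped Cbx2 peaks, and 97.8% of RYBP bases at Nr2f1 and 100% at Nr2f2 were inside Cbx2 cover. RYBP cover at these loci was thus almost all inside Cbx2 cover. The share of all RYBP peaks that overlap Cbx2 peaks was not computed, so the count is a description only. Cbx2 cover without a RYBP peak extended over 33.7 kb at Nr2f1 and 20.3 kb at Nr2f2. The most common score in the RYBP list, 55.65, was near its lowest, 50. RYBP below the limit of peak calling was not examined, so lack of a peak is not lack of RYBP.

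Cbx2 traced the extent of MES Mel18. At Nr2f1, 97.1% of Cbx2 bases lay in MES Mel18 peaks and 93.9% of MES Mel18 bases lay in Cbx2 peaks. The corresponding shares at Nr2f2 were 100% and 98.8%. Such overlap was general in regions with at least 10 kb covered. Pooled over them, Cbx2 covered 98.8% of the bases with Mel18 in both states and 91.2% of those with Mel18 in MES only. Cbx2 had a weak peak at the low-coordinate edge of Nr2f1, chr13:78301173-78301889, with a score of 52.47, and it overlapped no peak of any other list. The widest Cbx2 peaks were 17121 bp at Nr2f1 (chr13:78328510-78345630) and 33630 bp at Nr2f2 (chr7:77484032-77517661).

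RYBP peaks had a lower median width than those of the other MES lists at each locus, but were not short for the RYBP list. They measured between 587 and 2713 bp at Nr2f1, with a median of 1449 bp, and between 547 and 6492 bp at Nr2f2, with a median of 1705.5 bp. The median over the whole RYBP list was 1476 bp. The Nr2f2 peaks of 6492, 6323 and 5019 bp were wider than 99.3, 99.2 and 98.4% of that list. The highest RYBP score at Nr2f1 was 821.92, at chr13:78336532-78339244, a score above that of 98.1% of the RYBP list. At Nr2f2 the highest was 1413.7, at chr7:77502534-77507552, above 99.7% of the list. Each of these peaks spanned the gap between 2 ESC Mel18 peaks, both with a score of 3100 at Nr2f1, and with scores of 3100 and 1163.22 at Nr2f2. The lowest RYBP scores were 58.96 at Nr2f1 and 54.74 at Nr2f2.

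**Figure D3:**
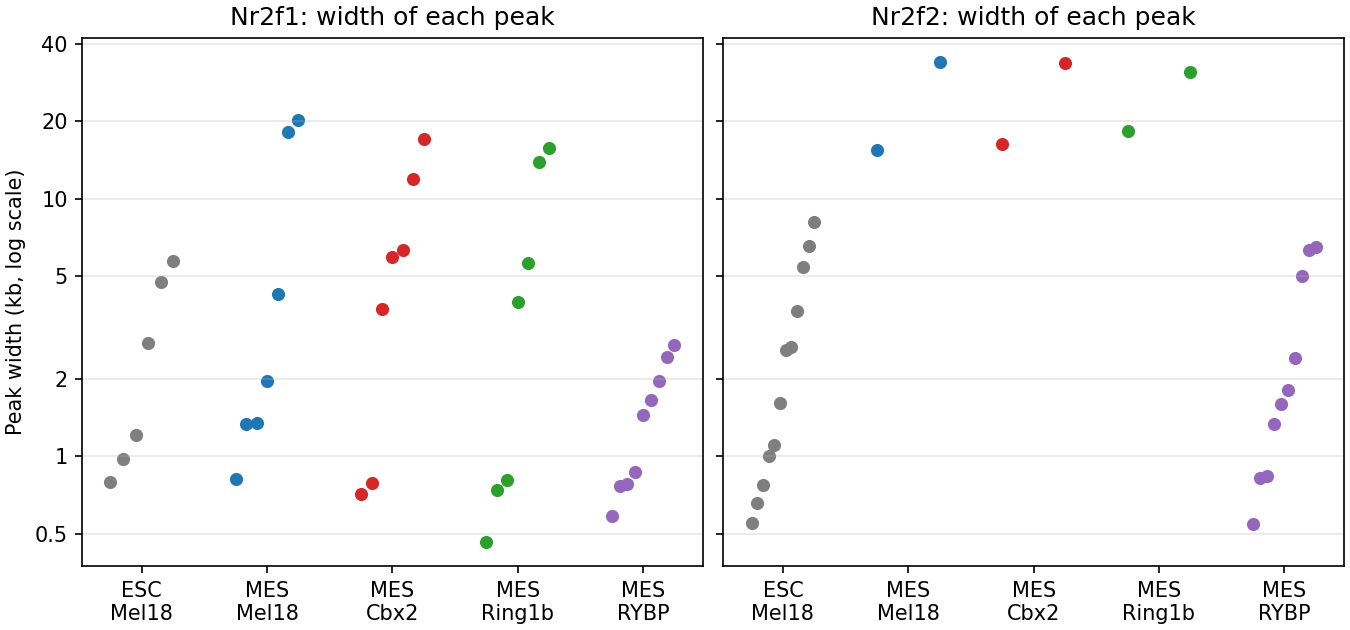
Width of each member peak in kb on a log scale, 1 point per peak, by list, at Nr2f1 (left) and Nr2f2 (right), with points spread sideways for sight only. At Nr2f2 the MES Mel18, Cbx2 and Ring1b lists each hold 2 peaks wider than 15 kb, whereas ESC Mel18 peaks reach 8149 bp and RYBP peaks 6492 bp.

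Among the large regions, Cbx2 covered at least 2 times the RYBP length in 46% of 313 regions with both lists. Nr2f1 was 1 of these and Nr2f2 was not, and nothing is read from Nr2f1 passing a limit that so many regions pass. The median ratio over all 313 regions was 1.93 (quartiles 1.60 and 2.50), and it was above 1 in 97.8% of them. Nr2f1 ranked 21 of 313 with 3.53, and Nr2f2 ranked 179 with 1.84 over its whole stretch. Both limits were passed together by 11.8% of 305 regions with all 4 lists, Nr2f1 among them. The loci were chosen with these contrasts in view, so these positions support nothing further. Over the whole lists, Cbx2 covered 1.04 times the RYBP length. Lists of different depth and calling can differ in covered length at every site, and depth was unknown here.

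**Figure D4:**
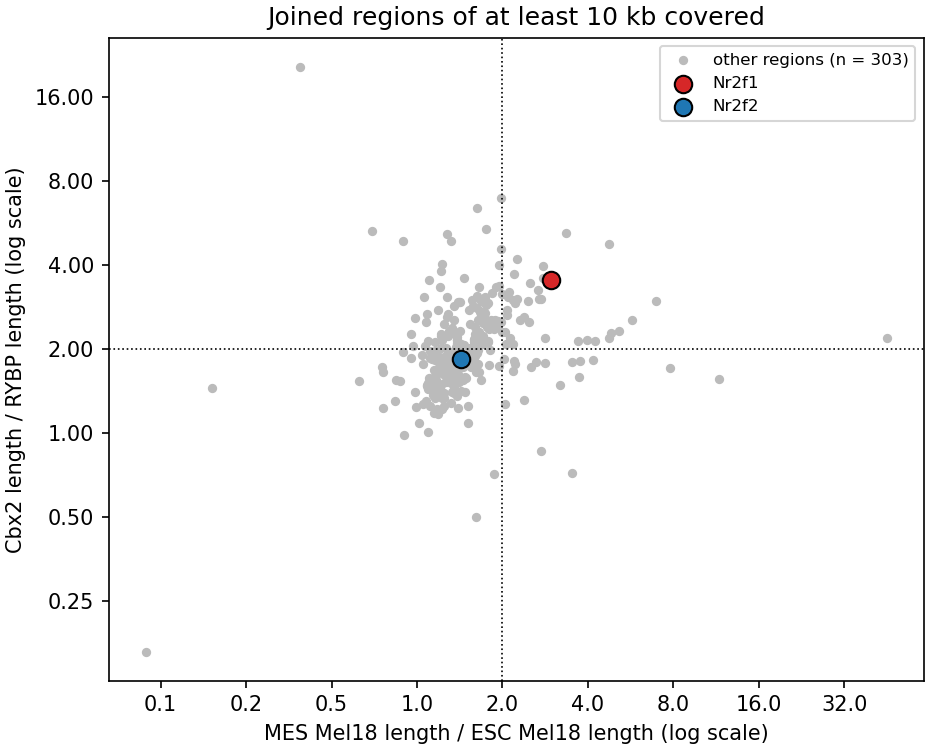
Each point is 1 joined region with at least 10 kb covered. The x axis is the ratio of MES to ESC Mel18 covered length and the y axis the ratio of Cbx2 to RYBP covered length, both on log scales, with dotted lines at 2. Nr2f1 (2.97 and 3.53) lies in the upper right and Nr2f2 (1.42 and 1.84) within the main cloud.

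Ring1b, the catalytic subunit, covered 41.4 kb of the Nr2f1 window with 7 peaks and 47.6 kb of the Nr2f2 window with 2 peaks. At Nr2f1, 99.8% of Ring1b bases lay in MES Mel18 peaks, while Ring1b covered 85.7% of the MES Mel18 bases. Its longest gap there was 3.47 kb (chr13:78328109-78331582), where Cbx2 cover went on and which held the 2 MES Mel18 peaks that overlapped Cbx2 alone. At Nr2f2, Ring1b covered 98.8% of MES Mel18 bases and its only gap was 7 bases long. The order of covered length was Mel18, Cbx2, Ring1b and RYBP at Nr2f1. At Nr2f2, MES Mel18, Ring1b and Cbx2 were within 0.59 kb of each other, and RYBP was again the shortest.

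Most RYBP bases in MES lay where Mel18 had been in ESCs, as in large regions in general. Over 310 such regions the median share was 95.2%, above both loci. At Nr2f1, 8 of 9 RYBP peaks overlapped an ESC Mel18 peak and 88.7% of RYBP bases were in ESC Mel18 cover. At Nr2f2 this held for 10 of 10 peaks and 91.7% of bases. The interval without ESC Mel18 peaks at chr13:78303395-78318328 matched an interval without RYBP peaks at chr13:78303450-78318336, which was also the longest of each list at Nr2f1. The RYBP peak outside ESC Mel18 cover, chr13:78325450-78326216, was 767 bp wide and scored 58.96. In turn, 5 of 6 ESC Mel18 peaks at Nr2f1 and 10 of 12 at Nr2f2 overlapped RYBP. The shares of such overlaps over all peaks of the lists were not computed.

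Bases with Mel18 in both states and bases with Mel18 in MES only therefore differed in RYBP peak cover. At Nr2f1, RYBP covered 72.1% of the 16.2 kb with Mel18 in both states and 4.69% of the 32.0 kb with Mel18 in MES only. At Nr2f2 the shares were 71.8% of 34.8 kb and 16.9% of 13.3 kb. Cbx2 covered 100% of the bases with Mel18 in both states at each gene, and 90.7% of the MES-only bases at Nr2f1 and 95.6% at Nr2f2. Ring1b covered 78.4% of the MES-only bases at Nr2f1 and 95.8% at Nr2f2. Of the 13 MES-only stretches at each gene, 9 at Nr2f1 and 8 at Nr2f2 held no RYBP peak, a share not computed over all regions. The longest at Nr2f1, 8.16 kb at chr13:78310165-78318328, was covered by Cbx2 at 95.6%, Ring1b at 96.6% and RYBP at 0%. The longest at Nr2f2, 3.63 kb at chr7:77484016-77487649, was covered at 99.6, 100 and 0%.

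The same order of RYBP shares was found in most large regions: 97.7% of 306 regions had more RYBP on bases with Mel18 in both states than on MES-only bases. Over all regions with at least 10 kb covered, taken as 1 pool, RYBP covered 73.9% of the bases with Mel18 in both states and 14.9% of those with Mel18 in MES only. Cbx2 covered 98.8 and 91.2%, and Ring1b 97.8 and 69.7%. The gap between the RYBP shares, both states less MES only, was 67.4 percentage points at Nr2f1 and 56.4 over the whole Nr2f2 stretch, against a median of 64.5 (quartiles 52.8 and 76.2) over 306 regions. The share of RYBP bases in ESC Mel18 peaks had a median of 95.2% over 310 regions, above both loci. At Nr2f1, 34.8% of Cbx2 bases were in ESC Mel18 cover, below the lower quartile of 46.4% over 308 regions. For its Ring1b bases the share was 39.2%, below the lower quartile of 58.3% over 311 regions. All ESC Mel18 bases at Nr2f1 lay in Cbx2 cover and in Ring1b cover. Both shares therefore restate the short ESC Mel18 cover with which the locus was chosen, and support nothing further. For Nr2f2 these shares were 69.6 and 70.3% over the whole stretch, within the quartiles. The stretches in common to all 5 lists added up to 11.7 kb at Nr2f1, 23.6% of the length covered by any list, and to 24.95 kb or 51.9% at Nr2f2.

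**Figure D5:**
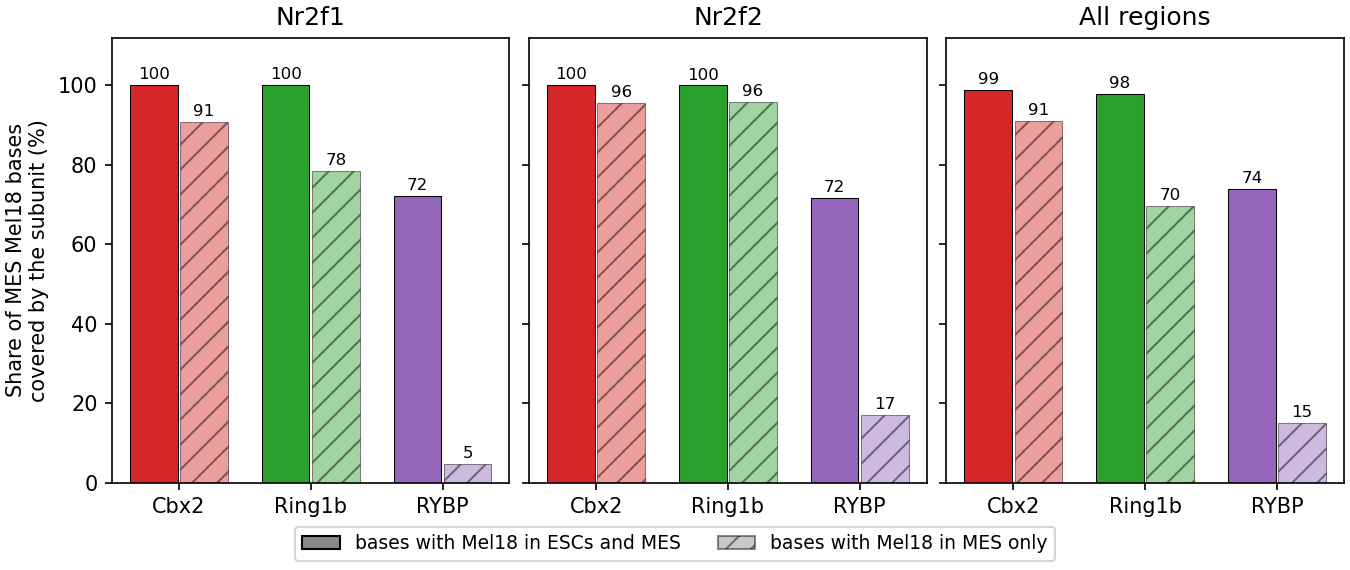
Share of MES Mel18 bases covered by Cbx2, Ring1b and RYBP, in percent, for bases with Mel18 in both states (plain bars) and in MES only (hatched bars), at Nr2f1, Nr2f2 and in all regions of at least 10 kb covered. RYBP shows the largest drop in each panel, from 72.1 to 4.69% at Nr2f1 and from 71.8 to 16.9% at Nr2f2.

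The stretch beside Nr2f2 that lay outside the window had covered-length ratios between those of Nr2f1 and Nr2f2. MES Mel18 covered 1.94 times the ESC Mel18 length there, and Cbx2 3.36 times the RYBP length. ESC Mel18 had 3 peaks in it, MES Mel18 and Ring1b 1 each, Cbx2 3 and RYBP 2. Which gene this stretch belongs to was not determined.

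The regions most like each locus were found by the Euclidean distance between the 5 shares of a region's span that the lists covered, over 320 other regions. For Nr2f1 they were chr4:97417349-97428408, chr4:88915250-88957468 and chr2:35944328-35965419, with MES to ESC Mel18 ratios of 2.49, 2.25 and 2.46 and Cbx2 to RYBP ratios of 3.43, 3.02 and 2.98. For Nr2f2 they were chr5:106875382-106901834, chr6:6797386-6835626 and chr12:74134585-74156369, with Mel18 ratios of 1.48, 1.59 and 1.31 and Cbx2 to RYBP ratios of 1.79, 1.88 and 1.73. The receptor genes were not close to each other by this measure, since Nr2f2 ranked 155 by likeness to Nr2f1 and Nr2f1 ranked 185 by likeness to Nr2f2.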

How the data were processed

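Peak lists of 5 ChIP-seq samples out of 15 samples were used; the IgG ChIP-seq sample and the 9 RNA-seq samples were not analysed here. The deposited files give chromosome, start, end, a name with the MACS tag and 1 score per peak, and this score is the authors' value on a scale not stated in the file headers. Per the submitters' processing notes the build was mm9 and the tools were Bowtie and TopHat, with no versions. None of the sources used here gave the caller settings, the control library or whether replicates were pooled. Starts are given counted from 1.

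The windows, members and lists of measures were chosen with earlier results of these data known. Member peaks overlapped a window by at least 1 bp, and covered length is the length of the window under at least 1 peak of a list. Peaks of all lists within 10 kb were joined into regions, and those with at least 10 kb covered were the background. No test was run, because each group had 1 sample. The named genes were Nr2f1 and Nr2f2, with the 3 most alike regions for each. A further list of nuclear receptor genes was not analysed here, since no gene positions on mm9 were used. Python 3.11.15, numpy 2.4.6, scipy 1.17.1 and matplotlib 3.10.9 were used, and overlap lengths were checked against bedtools 2.31.1 on 10 pairs of lists, of which 0 differed. Promoter bases came from RefSeq (GRCm38.p6).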

Additional observations from a re-analysis of the deposited data

How the results depend on the processing

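No paired analysis was possible because there was 1 sample per list. Of 44 recomputed values, 37 were within 1.5 times of the reported ratio or count, or inside the exact Clopper-Pearson 95% interval of the reported share, and 7 moved. Some of the 37 could not move. No Nr2f1 peak crossed its window, so whole peaks and the joined stretch gave 2.97 and 3.53 again. ESC Mel18 cover lay wholly inside MES Mel18 cover, so a 50% overlap limit had to return the same counts. None of the 26 recomputed ratios at Nr2f1 or Nr2f2 changed its side of 1. That nesting, and the position of almost all RYBP cover inside Cbx2 cover, left little room for such a change. This count therefore supports nothing further. The Nr2f1 ratio of Cbx2 to RYBP was 5.65 with the 3679 highest-scoring peaks of each list, which shortens the RYBP list and leaves the Cbx2 list whole. At Nr2f2 this ratio lay between 1.60 and 2.04, so whether it passed 2 depended on the setting. The share of regions with MES Mel18 at 2 or more times the ESC length was 22.9% with lists of equal length and 12.9% with regions of any covered length. The share with Cbx2 at 2 or more times the RYBP length was 60.9% in the upper 50% by score, 68.4% with lists of equal length, 24.6% with regions of any covered length and 55.4% with at least 20 kb covered. The limits of 20 and 40 kb and the extension of the Nr2f2 window by the neighbouring stretch were added after the data were seen. Causes of these moves were not tested, and read depth, which sets how much of a stretch a caller reports, was unknown.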
